A study of Mus musculus with 16 samples.

Results

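The 38 genes described here encode the main proteins of the heat shock response and of the unfolded protein response (UPR). They were chosen by name, and each of the 38 was found once among the 31469 entries of both deposited tables (31020 distinct names). YFP+ neurons of the basolateral amygdala (BLA) or of the gustatory cortex (GC) were sorted manually from male YFP-H mice (B6.Cg-Tg(Thy1-YFP)HJrs/J) of 60 to 80 days, a strain in which the Thy1 promoter drives YFP in a subset of projection neurons. The CTA groups drank 0.5% saccharin for 30 min and were then injected i.p. with 0.15 M LiCl at 2% of body weight, and the taste control groups drank saccharin and were injected with saline. Cells were taken 4 hr after training, and 4 libraries were made per group and region, 16 in all. All 16 came from dissociated, sorted cells, so that a part of dissociation in any level given here cannot be told apart from the level in the intact brain. All mice of both regions carried the transgene and drank saccharin.

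In the heat shock response, cytosolic misfolded protein frees heat shock factor 1 (encoded by Hsf1) from chaperones, and the factor then binds heat shock elements and raises the transcription of chaperones such as the inducible HSP70s. The UPR answers misfolded protein in the endoplasmic reticulum (ER) through 3 membrane sensors, IRE1 (Ern1), PERK (Eif2ak3) and ATF6 (Atf6). They act through the factors XBP1, ATF4 and the cleaved ATF6 on ER chaperones, folding enzymes and the degradation machinery (ERAD), and prolonged PERK signaling raises CHOP (Ddit3). In neurons the constitutive HSC70 (Hspa8) and HSP90 are among the most abundant chaperones and take part in vesicle cycling and receptor turnover.

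Levels are in TPM, the transcript share scaled to transcript length and to the total of each library, so that genes can be compared with each other. TPM values hold no read counts, so that counting error could not be estimated for any library. BLA libraries held 15850 to 17202 entries above 0 TPM and GC libraries 17982 to 18340. The projection neuron transcript Slc17a7 averaged 712 ± 56.9 TPM in the BLA and 879 ± 70.7 TPM in the GC (SD, n = 8 each), while the astrocyte transcript Gfap averaged 0.458 ± 0.671 TPM in the BLA and 3.18 ± 5.05 TPM in the GC and the microglial Tmem119 was listed at 0 TPM in every BLA library. Other markers were detected. The microglial Aif1 averaged 16.7 ± 22.2 TPM in the BLA and 5.70 ± 5.23 TPM in the GC. The interneuron transcripts Gad2 and Sst averaged 20.4 ± 12.3 and 20.7 ± 32.7 TPM in the BLA and 7.64 ± 6.77 and 4.61 ± 11.0 TPM in the GC. Pvalb was listed at 0 TPM in every BLA library and averaged 31.1 ± 26.4 TPM in the GC. The 38 genes together took 8975 to 10123 TPM of the BLA libraries and 9062 to 10296 TPM of the GC libraries. The labels do not say whether BLA and GC libraries came from the same mice, and p-values measure only the spread between these libraries.

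Promoter windows of some of these genes held matches to elements that the 2 responses use, while most did not. RefSeq promoter windows of GRCm38.p6, from 250 bases before to 50 bases after an annotated start, were at hand for 31 of the 38 genes. The ER stress response element was searched as CCAAT, 9 bases of any kind and CCACG, on both strands. It was found in 6 of the 31 genes (19.4%), all encoding ER chaperones or folding enzymes, and in 0.137% of the 27025 genes with a window. Pdia3, which was more abundant than Pdia6, had no match. The 7 matches are shown so that their spacers can be compared, with the fixed bases in capitals and read in the direction of the element:
Hspa5: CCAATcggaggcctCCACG
Calr: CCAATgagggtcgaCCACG
Hsp90b1: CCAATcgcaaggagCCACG
Hsp90b1: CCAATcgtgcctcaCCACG
Canx: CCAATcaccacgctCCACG
Pdia6: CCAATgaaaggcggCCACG
Dnajc3: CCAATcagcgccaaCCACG
The Hsp90b1 window held 2 matches, on opposite strands, and the match of Hspa5 began 65 bases before the start. The heat shock element, searched on both strands as 3 alternating GAA and TTC units (GAANNTTCNNGAA or its complement), was found in Hspd1, Hspe1 and Hsph1, 3 of the 31 genes (9.68%), against 0.662% of all genes. Hspd1 and Hspe1 are transcribed in opposite directions on chromosome 1, and their 2 overlapping matches are the same bases, at chr1:55088059-55088076. For Hspd1 they lay in the window of an inner start (chr1:55087883-55088182). The window of its outer start (chr1:55088194-55088493) had 0 matches. The matched bases lie inside the annotated Hspd1 gene body (chr1:55077835-55088243). The 250 bases before the start of Hspe1 are printed because they hold these matches, and Hspe1 alone of the 2 genes was called between regions. Those of Hspa5 are printed because it is the classical UPR target. Capitals mark the overlapping heat shock elements in Hspe1 (chr1:55087898-55088147, plus strand) and the ER stress response element in Hspa5 (chr2:34771840-34772089, plus strand):
Hspe1: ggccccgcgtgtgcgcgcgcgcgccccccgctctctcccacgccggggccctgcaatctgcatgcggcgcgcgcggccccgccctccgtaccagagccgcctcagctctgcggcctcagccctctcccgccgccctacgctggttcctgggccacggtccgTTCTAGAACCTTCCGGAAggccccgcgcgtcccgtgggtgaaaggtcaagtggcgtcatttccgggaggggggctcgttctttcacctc
Hspa5: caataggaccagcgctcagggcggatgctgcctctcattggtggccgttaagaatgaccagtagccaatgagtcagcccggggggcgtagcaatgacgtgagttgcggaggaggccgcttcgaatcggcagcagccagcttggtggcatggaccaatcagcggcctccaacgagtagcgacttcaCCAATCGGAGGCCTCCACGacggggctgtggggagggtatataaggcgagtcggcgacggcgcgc
The match of Hsph1 lay after its annotated starts. The windows of Hspa1a, Hspa1b, Dnajb1, Hspb1 and Bag3 had no match to the heat shock element as searched, and looser forms of it were not searched. The UPR element TGACGTGG was found in 0 of the 31 windows (0.714% of all genes), and the C/EBP-ATF response element TGATGNAA in those of Herpud1 and Trib3 (6.45%, against 4.51% of all genes). The match of Trib3 lay after its start. All these matches are letters in a window and were not tested as binding sites.

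The cytosolic HSP70 and HSP90 proteins held most of the transcript of the 38 genes. Hspa8, the constitutive HSC70, was the most abundant in both regions. It had 2729, 3089, 2516 and 2993 TPM in the CTA BLA libraries, against 2902, 3039, 2461 and 2692 TPM in the taste control BLA libraries, and 2932, 2742, 3029 and 3043 TPM in the CTA GC libraries, against 2564, 3042, 3088 and 3181 TPM in the taste control GC libraries. The 4 groups overlapped, and the coefficient of variation over 8 libraries was 8.54% for the BLA and 6.87% for the GC. The HSP90 transcripts Hsp90ab1 (constitutive) and Hsp90aa1 (inducible) averaged 1512 ± 183 and 1193 ± 153 TPM in the BLA, with 1581 ± 113 and 1111 ± 210 TPM for GC libraries. The nucleotide exchange factors of HSP70 followed, with Hsph1 at 426 ± 45.9 TPM, Hspa4 at 195 ± 30.9 TPM and Hspa4l at 76.4 ± 16.9 TPM in the BLA, and 416 ± 56.4, 203 ± 16.8 and 98.5 ± 18.7 TPM in the same order in the GC (SD, n = 8 each).

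The strictly stress-inducible HSP70 genes were low in every library. Hspa1a had 3.43, 3.92, 11.6 and 11.0 TPM in the CTA BLA libraries, against 6.29, 5.37, 15.2 and 4.88 TPM in the taste control BLA libraries. In the GC it had 13.5, 8.53, 10.1 and 12.7 TPM after CTA, against 6.72, 10.2, 15.4 and 6.23 TPM in the taste controls. Its neighbor on chromosome 17, Hspa1b, had 1.83, 3.09, 4.14 and 4.70 TPM in the CTA BLA libraries, against 2.52, 2.82, 6.61 and 1.18 TPM in the taste control BLA libraries. In the GC Hspa1b had 4.24, 7.0, 2.23 and 2.69 TPM after CTA, against 6.14, 5.63, 3.31 and 4.68 TPM in the taste controls. Neither gene set any group apart, and Hspa1a was detected in all 16 libraries. The authors counted unique reads, and 66.3% of the 50-base stretches of Hspa1a transcripts and 62.3% of those of Hspa1b also occur in another gene, mostly the other of the pair, so that both levels may be understated. The same limit holds for Hspa8 (68.8%, mostly a pseudogene), Hsp90aa1 (50.1%), Hspb1 (50.1%), Hspe1 (44.8%), Hspd1 (42.1%), Dnaja1 (27.1%) and Cryab (14.4%, all with Hspb2). How many of their reads were lost was not tested.

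Co-chaperones and small heat shock proteins ranged from abundant to undetected. The J-domain proteins, which hand substrates to HSP70, averaged 235 ± 48.7 TPM (Dnaja1), 106 ± 43.1 TPM (Dnajb1), 160 ± 64.0 TPM (Dnajb4) and 82.4 ± 31.8 TPM (Dnajb5) in the BLA. In the GC they averaged 205 ± 42.6 TPM (Dnaja1), 124 ± 18.9 TPM (Dnajb1), 65.5 ± 16.2 TPM (Dnajb4) and 120 ± 25.0 TPM (Dnajb5). Bag3, a co-chaperone of chaperone-assisted autophagy that is strongly induced by stress, stayed between 0 and 3.05 TPM in the BLA and between 0.04 and 1.5 TPM in the GC. Hspb1, the small heat shock protein HSP27 (HSP25 in mice), was listed at 0 TPM in 7 of 8 BLA libraries and reached 11.2 TPM in taste control BLA 4, and in the GC it was listed at 0 TPM in 5 of 8 libraries and reached 1.11 TPM. The mitochondrial chaperonin transcripts, Hspe1 (HSP10) and Hspd1 (HSP60), averaged 623 ± 180 and 272 ± 62.0 TPM in the BLA and 371 ± 65.0 and 247 ± 35.7 TPM in the GC.

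The ER chaperones and folding enzymes ranged widely in level, in the BLA from Hsp90b1 at the top to Sdf2l1 at the bottom. Hsp90b1 (GRP94) averaged 393 ± 45.6 TPM in the BLA and 425 ± 49.9 TPM in the GC. Hspa5 (BiP, the HSP70 of the ER that holds the 3 sensors inactive) had 228, 294, 266 and 245 TPM in the CTA BLA libraries, against 200.0, 200.3, 154 and 313 TPM in the taste control BLA libraries. In the GC it had 262, 262, 269 and 223 TPM after CTA, against 249, 283, 218 and 266 TPM in the taste controls. The 4 groups of Hspa5 overlapped. The lectin chaperones Calr and Canx averaged 178 ± 59.2 and 170 ± 30.7 TPM in the BLA and 211 ± 17.4 and 187 ± 28.7 TPM in the GC. The disulfide isomerases Pdia3, Pdia6 and Pdia4 averaged 133 ± 21.7, 83.3 ± 37.7 and 16.5 ± 9.95 TPM in the BLA and 154 ± 20.1, 85.2 ± 15.1 and 21.5 ± 3.98 TPM in the GC. Lower levels were measured for Dnajb9 (ERdj4) with 44.1 ± 16.9 TPM in the BLA and 46.8 ± 13.6 TPM in the GC, for Herpud1, an ERAD component, with 33.7 ± 13.1 TPM in the BLA and 32.2 ± 7.29 TPM in the GC, and for Dnajc3 (p58IPK) with 19.2 ± 7.51 TPM in the BLA and 21.0 ± 6.27 TPM in the GC. The secreted factor Manf averaged 17.7 ± 9.44 TPM in the BLA and 25.0 ± 8.72 TPM in the GC.

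Among the regulators, Atf4 was the most abundant. It had 145, 181, 191 and 154 TPM in the CTA BLA libraries, against 166, 212, 118 and 176 TPM in the taste control BLA libraries. GC libraries had 294, 170, 225 and 215 TPM after CTA, against 211, 156, 244 and 203 TPM in the taste controls. These groups overlapped. Xbp1 averaged 149 ± 75.1 TPM in the BLA and 147 ± 40.2 TPM in the GC, and the tables do not separate its spliced form, which is the active one. Atf6, Hsf1 and Hsf2 averaged 37.7 ± 17.3, 48.9 ± 31.2 and 40.0 ± 16.7 TPM in the BLA and 66.6 ± 10.2, 41.0 ± 9.03 and 41.9 ± 14.9 TPM in the GC. Ddit3 averaged 31.8 ± 23.3 TPM in the BLA and 36.4 ± 8.47 TPM in the GC. The genes of the 2 kinase sensors had lower levels, with 5.92 ± 3.19 TPM in the BLA and 14.0 ± 4.29 TPM in the GC for Eif2ak3, and 1.23 ± 1.21 TPM in the BLA and 3.08 ± 2.26 TPM in the GC for Ern1. Trib3, a pseudokinase gene induced by ATF4 and CHOP, was listed at 0 TPM in all 8 BLA libraries and in 5 of 8 GC libraries, and its highest value was 0.990 TPM, in taste control GC 3.

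**Figure D1:**
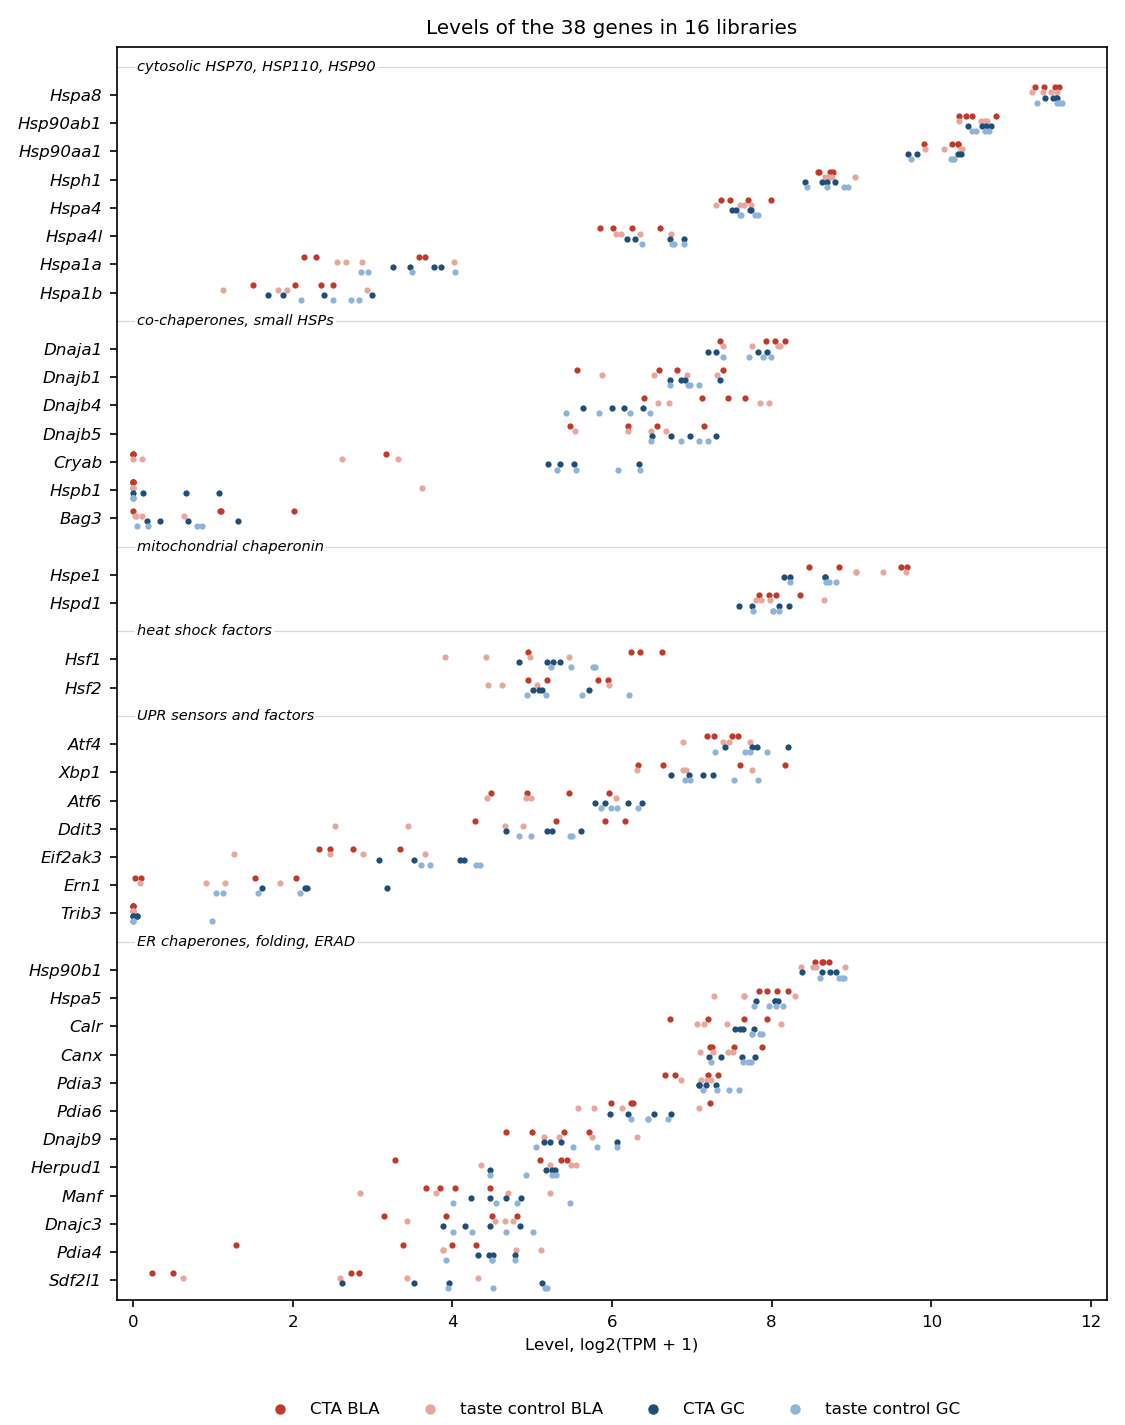
Levels of the 38 genes as log2(TPM + 1) on the x axis, grouped by role, with 1 point per library and 4 points per group (CTA BLA, taste control BLA, CTA GC, taste control GC). Hspa8 lies at the top near 2803 TPM in the BLA and 2953 TPM in the GC, Trib3, Bag3, Hspb1 and Ern1 have the 4 lowest means in each region, and the BLA points of Cryab lie apart from its GC points.

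The spread between libraries was set beside that of other genes. Among entries with a mean of at least 30 TPM, the median coefficient of variation was 25.9% for 26 of the 38 genes and 30.2% for all 5251 entries in the BLA, and 17.7% for 27 genes and 19.4% for all 5628 entries in the GC. The sets were not matched for level above that limit. The medians therefore do not show whether these genes vary less than others of like level. Several chaperones were low in the same GC libraries, which was noticed after the values were seen. Hsp90aa1 had 834 and 900 TPM in CTA GC 3 and CTA GC 4 and 855 TPM in taste control GC 3, against 1211 to 1326 TPM in the other 5 GC libraries. These 3 libraries, chosen by Hsp90aa1, held the 3 lowest GC values of 12 of the 27 genes with at least 30 TPM (44.4%). Hsp90aa1 was itself counted among the 12, with Dnaja1, Hspe1, Hspd1, Hspa4, Hsp90b1, Canx and Atf6 among the rest. The same held for 900 of all 5628 entries at that level (16%). The libraries were chosen from the values of a gene on the list, which favors the list. The shares therefore cannot show whether the 27 genes follow the pattern more often than other genes. Hsp90ab1 did not share this pattern, with 1715, 1652 and 1632 TPM in these 3 libraries and 1406 to 1692 TPM in the other 5. The 3 libraries belong to both training groups.

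The comparison of CTA with taste control asked which transcripts differed 4 hr after training. The CTA groups received LiCl and the controls saline, and no library came from mice given LiCl alone. Learning and the response to LiCl itself therefore cannot be told apart. In the BLA none of the 36 genes tested passed the threshold in limma (adjusted p under 0.05 by the Benjamini-Hochberg method over 14611 genes), and neither did any other gene (0%). At an unadjusted limma p under 0.05 stood 2 of the 36, Hsf1 and Ddit3, both higher after CTA, against 568 of 14611 genes (3.89%). None of the 36 separated the groups without overlap, against 2.38% of all genes. Of the 36 genes, 17 lay above 0 and 19 below, while 52.1% of all genes lay above 0. The median log2 difference was -0.04 over the 36 genes and 0.02 over all genes.

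Hsf1 encodes the master factor of the heat shock response. It had 74.4, 97.9, 30.0 and 80.8 TPM in the CTA BLA libraries, against 43.2, 20.4, 30.5 and 14.0 TPM in the taste control BLA libraries. After CTA 3 of the 4 libraries lay above all controls, and CTA BLA 3 lay within them. The log2 difference was 1.35 (SE 0.44, unadjusted limma p = 0.00860, adjusted p = 0.999, exact permutation p = 0.0857, where 0.0286 is the smallest that 4 libraries against 4 allow). Leaving out each library in turn moved it between 1.09 and 1.71 on the log2 scale, with the adjusted p never under 0.933 in any alternative tried.

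Ddit3, which encodes the UPR factor CHOP, had 18.4, 70.9, 59.2 and 38.5 TPM in the CTA BLA libraries, against 28.5, 4.78, 24.3 and 9.91 TPM in the taste control BLA libraries. CTA BLA 1 lay among the controls and the other 3 above them. The log2 difference was 1.54 (SE 0.57, unadjusted limma p = 0.0186, adjusted p = 0.999, exact permutation p = 0.0857). No other gene of the 36 reached that unadjusted p. Of the other members of the PERK branch, Atf4 and Trib3 had the values given above. The PERK gene Eif2ak3 averaged 5.88 ± 2.32 TPM after CTA and 5.97 ± 4.28 TPM in the controls (SD, n = 4 each). The ERAD gene Herpud1 averaged 31.1 ± 15.4 TPM after CTA and 36.4 ± 11.9 TPM in the controls (SD, n = 4 each).

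The next genes by p both encode ER proteins and had lower means after CTA, without being called. Pdia4 had 14.9, 18.6, 9.45 and 1.44 TPM in the CTA BLA libraries, against 13.7, 33.5, 13.8 and 26.9 TPM in the taste control BLA libraries, a log2 difference of -1.18 (SE 0.64, limma adjusted p = 0.999, exact permutation p = 0.171). Without CTA BLA 4, its lowest library, that difference was -0.53. Sdf2l1 had 0.420, 6.11, 5.63 and 0.18 TPM after CTA, against 18.9, 9.77, 0.550 and 5.03 TPM in the controls, a log2 difference of -1.17 (SE 0.88, limma adjusted p = 0.999, exact permutation p = 0.286). Its difference was -1.87 without taste control BLA 3, -0.64 without taste control BLA 1 and -0.72 without CTA BLA 4. Both sets of values overlapped between the groups.

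In the GC none of the 35 genes tested was called, nor any of the 15278 genes (0%). An unadjusted limma p under 0.05 was reached by 0 of the 35, against 573 of all genes (3.75%), and no gene of the 35 separated the groups, against 2.21% of all genes. Of the 35 genes, 10 lay above 0 and 25 below, while 48.8% of all genes lay above 0. The median log2 difference was -0.10 over the 35 genes and -0.01 over all genes. Without the 3 GC libraries described above it was -0.02, and the log2 differences named next were then -0.63 for Hsf1, -1.48 for Sdf2l1, 0.47 for Ern1 and -0.26 for Pdia3. Hsf1, higher in 3 CTA libraries of the BLA, had 27.5, 37.5, 35.5 and 39.7 TPM in the CTA GC libraries, against 53.1, 43.9, 36.8 and 54.1 TPM in the taste control GC libraries (log2 difference -0.41, SE 0.20, limma adjusted p above 0.999, exact permutation p = 0.0857). Sdf2l1 had 5.13, 14.6, 10.4 and 33.8 TPM after CTA, against 35.4, 34.9, 21.8 and 14.4 TPM in the controls (log2 difference -0.90, SE 0.47, exact permutation p = 0.171), and -0.50 without CTA GC 1.

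The IRE1 gene Ern1 had 2.07, 3.46, 8.10 and 3.53 TPM in the CTA GC libraries, against 1.18, 3.28, 1.95 and 1.05 TPM in the taste control GC libraries (log2 difference 0.83, SE 0.45, exact permutation p = 0.0571). CTA GC 3 held the highest value, the difference was 0.53 without it, and the groups overlapped. Pdia3 had 136, 156, 135 and 143 TPM after CTA, against 158, 191, 141 and 175 TPM in the controls (log2 difference -0.21, SE 0.14, exact permutation p = 0.114). Ddit3 had 35.5, 37.0, 47.8 and 24.5 TPM after CTA, against 30.6, 43.6, 44.4 and 27.5 TPM in the controls, with full overlap.

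**Figure D2:**
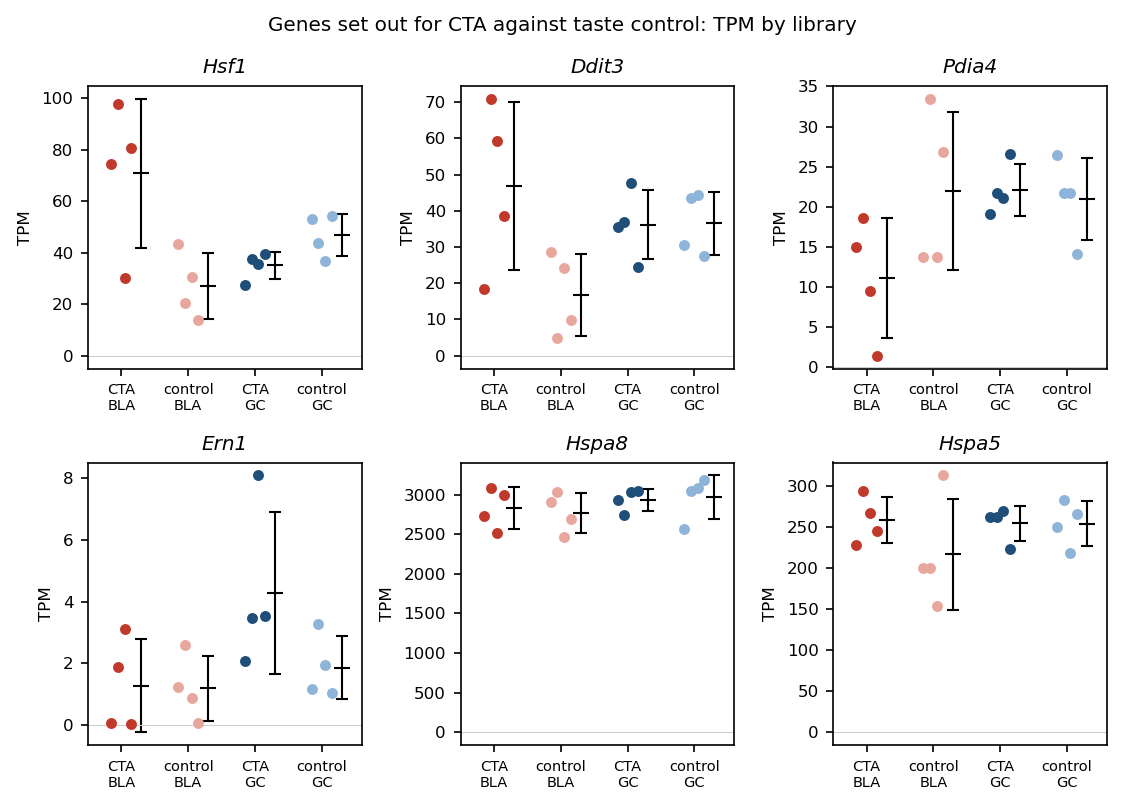
TPM (y axis, from 0) of Hsf1, Ddit3, Pdia4, Ern1, Hspa8 and Hspa5 in the 4 groups on the x axis, 1 point per library, with the mean and SD (n = 4) as bars beside the points. Hsf1 and Ddit3 average 70.8 and 46.8 TPM in CTA BLA libraries and 27.0 and 16.9 TPM in taste control BLA libraries, with 1 CTA library of each among the controls.

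**Figure D3:**
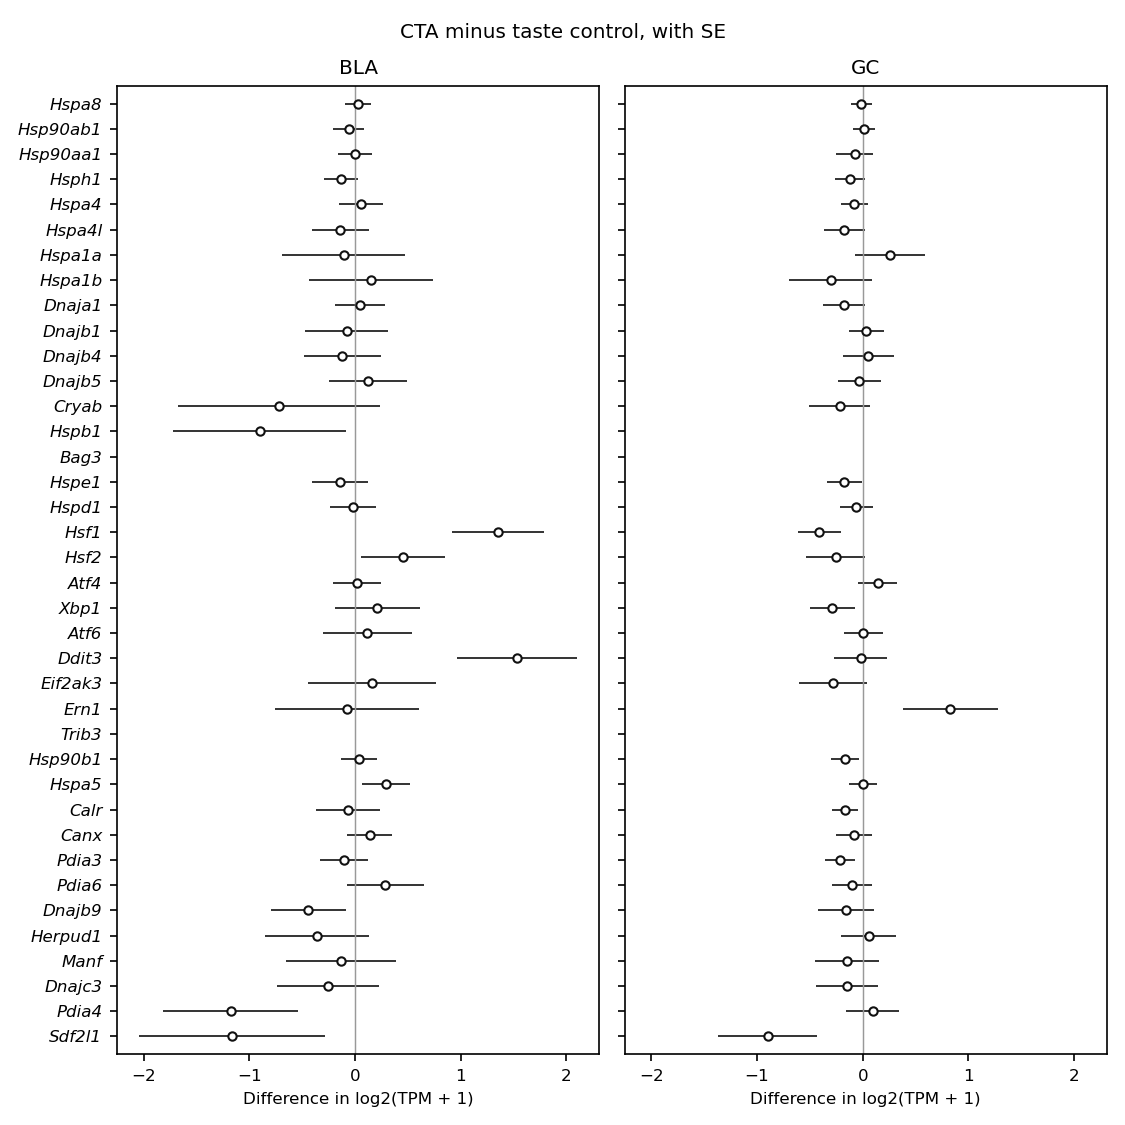
Difference in log2(TPM + 1), CTA minus taste control, for each gene tested, in the BLA (left) and the GC (right), with SE from limma. Every circle is open because no gene was called, and Hsf1 and Ddit3 lie farthest right in the BLA at 1.35 and 1.54.

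Whether the CTA difference itself differed between regions was tested as the difference in the BLA minus that in the GC. None of the 35 genes was called, nor any of 15191 genes (0%). At an unadjusted limma p under 0.05 stood 2 of the 35, Hsf1 and Ddit3, against 3.96% of all genes. Hsf1 had a log2 difference of 1.76 (SE 0.50) and Ddit3 one of 1.55 (SE 0.66), each with a limma adjusted p above 0.999. Pdia4 (log2 -1.27, SE 0.71) and Hsf2 (log2 0.71, SE 0.50), the second heat shock factor, came next, and neither passed at an unadjusted p. Hsf2 had 35.4, 29.8, 60.8 and 55.7 TPM in the CTA BLA libraries, against 32.3, 20.8, 61.4 and 23.7 TPM in the taste control BLA libraries, and in the GC 33.7, 51.6, 32.9 and 31.1 TPM after CTA, against 48.4, 72.9, 29.7 and 35.0 TPM in the taste controls. Its groups overlapped in both regions.

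Between the regions, 6 of the 35 genes tested were called over both trainings (17.1%), a share close to the 19.3% of all 15191 genes. Higher in the BLA were 2 of them, Dnajb4 and Hspe1, against 4.12% of all genes, and lower in the BLA were 4, Cryab, Sdf2l1, Atf6 and Eif2ak3, against 15.2% of all genes. The median log2 difference, BLA minus GC, was -0.14 over the 35 genes and -0.23 over all genes. Median-ratio rescaling of the libraries shifted the median of all genes by 0.20 and quantile normalization by 0.26, and among all calls the share higher in the BLA was 21.3% as deposited, 44.6% after median-ratio rescaling and 43.3% after quantile normalization. The 6 kept their directions under both, while Atf6 lost its call under the first (adjusted p = 0.0595) and Eif2ak3 under the second (adjusted p = 0.0884). Median-ratio rescaling added a call of Hsp90aa1, higher in the BLA (log2 0.34, limma adjusted p = 0.0466, against log2 0.12 as deposited). Of the 35 genes, 13 changed direction under median-ratio rescaling, which put the median at 0.09, and 5 under quantile normalization, which put it at -0.12.

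Cryab, which encodes alpha-B-crystallin, a small heat shock protein that prevents aggregation, differed most. It had 0, 7.99, 0 and 0 TPM in the CTA BLA libraries, against 80.2, 44.9, 39.9 and 35.7 TPM in the CTA GC libraries. In the taste controls it had 8.97, 0, 0.080 and 5.14 TPM in the BLA, against 45.7, 38.6, 66.6 and 80.4 TPM in the GC. It was the only one of the 35 genes whose region groups did not overlap, against 5.91% of all genes. With 4 of 8 BLA libraries at 0 TPM the size of the log2 difference depends on the pseudocount, with -6.58 at 0.1 and -3.01 at 5. It was -4.56 at 1 (SE 0.53, limma adjusted p = 5.68e-06, exact permutation p = 0.000408, the smallest that permuting within training allows), and it was called within CTA (log2 -4.81) and within taste controls (log2 -4.31) alone. Cryab lies on chromosome 9 (50751325 to 50756636, plus strand, GENCODE on GRCm38).

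Cryab is known as a transcript of oligodendrocytes and astrocytes in the brain, and the median summed levels of both marker lists were lower in the BLA, while single oligodendrocyte markers differed in either direction. The summed level of 8 astrocyte markers was 10.5 to 46.5 TPM (median 13.7) in the BLA libraries and 82.4 to 232 TPM (median 102) in the GC libraries, and 4 of the 8 tested were called lower in the BLA. The summed level of 8 oligodendrocyte markers was 14.8 to 139 TPM (median 117) in the BLA and 111 to 420 TPM (median 164) in the GC, and of the 7 tested 4 lay below 0 and 3 above, with Mbp alone called, lower in the BLA. Mog averaged 1.13 TPM in the BLA and 0.501 TPM in the GC, and Mag 6.10 TPM in the BLA and 1.82 TPM in the GC. In the GC Cryab averaged 54.0 TPM. The astrocyte marker Aldoc averaged 82.2 TPM there and the oligodendrocyte marker Mbp 127 TPM. Every other marker of the 2 lists averaged less than Cryab in the GC, among them Gfap at 3.18 TPM. The part of other cell types in the Cryab difference was not tested. In such libraries fewer cells of a type and less RNA per cell cannot be told apart.

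The other genes lower in the BLA belong to the UPR. Sdf2l1, a partner of ER J-domain proteins, averaged 5.83 ± 6.29 TPM in the BLA and 21.3 ± 12 TPM in the GC, with a log2 difference of -2.09 (SE 0.53, limma adjusted p = 0.00901). The overlap came from CTA GC 1 at 5.13 TPM and taste control BLA 1 at 18.9 TPM. The sensor gene Atf6 had 29.7, 43.2, 21.5 and 61.3 TPM in the CTA BLA libraries, against 81.8, 72.6, 54.4 and 59.2 TPM in the CTA GC libraries. In the taste controls it had 30.6, 29.4, 65.2 and 20.6 TPM in the BLA, against 65.9, 79, 57.4 and 62.7 TPM in the GC. A single BLA library of each training reached the GC range, and the log2 difference was -0.91 (SE 0.23, limma adjusted p = 0.00974). The sensor gene Eif2ak3 had 4.03, 5.75, 4.55 and 9.19 TPM in the CTA BLA libraries, against 16.7, 10.4, 7.47 and 16.1 TPM in the CTA GC libraries. In the taste controls it had 6.35, 4.51, 11.6 and 1.40 TPM in the BLA, against 11.2, 18.7, 12.1 and 19.3 TPM in the GC. The log2 difference was -1.21 (SE 0.33, limma adjusted p = 0.0139).

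Of all genes tested 68.2% lay below 0, so that direction counts are read beside that share. Of the 7 UPR sensors and transcription factors, 6 were tested and all 6 lay below 0 (median log2 -0.72), 5 of them after median-ratio rescaling, with 2 called. All 12 ER chaperones, folding enzymes and ERAD genes lay below 0 (median log2 -0.16), but 4 did after median-ratio rescaling and 9 after quantile normalization, and Sdf2l1 alone was called. At an unadjusted limma p under 0.05 stood 10 of the 35 genes, against 31.2% of all genes, and 8 of them were lower in the BLA, against 24.3% of all genes. Beyond the called genes, Dnajb5 (log2 -0.61), Atf4 (log2 -0.35), Ern1 (log2 -0.91) and Hspa4l (log2 -0.37) reached it, all lower in the BLA. Without the 3 GC libraries low in Hsp90aa1 the calls of Hspe1 (adjusted p = 0.0938) and Sdf2l1 (adjusted p = 0.0769) were lost, Hspa4l was called in addition (log2 -0.57), so that 5 genes were called, and the median over the genes tested was -0.29.

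Dnajb4, a cytosolic J-domain protein, had 174, 83.4, 139 and 201 TPM in the CTA BLA libraries, against 70.3, 82.8, 48.6 and 62.8 TPM in the CTA GC libraries. In the taste controls it had 94.2, 104, 249 and 231 TPM in the BLA, against 56.3, 88.0, 41.8 and 73.7 TPM in the GC. Within each training all 4 BLA libraries lay above all 4 GC libraries. The share of all genes that separate the regions within a single training was not counted. Pdia4, which was not called, also separated them within CTA, with all 4 BLA libraries below all 4 GC libraries. The log2 difference over both was 1.20 (SE 0.24, limma adjusted p = 0.00143, exact permutation p = 0.000408), 1.12 within CTA and 1.29 within taste controls. None of its 50-base stretches occurs in another gene.

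Hspe1, the co-chaperonin of mitochondrial HSP60, had 829, 460, 788 and 353 TPM in the CTA BLA libraries, against 407, 406, 285 and 299 TPM in the CTA GC libraries. In the taste controls it had 532, 533, 824 and 669 TPM in the BLA, against 408, 446, 300.2 and 420.4 TPM in the GC. These did not overlap, and here too the share of all genes that separate was not counted. CTA BLA 4 was the single BLA library within the GC range. The log2 difference was 0.71 (SE 0.17, limma adjusted p = 0.00632). Its divergent neighbor Hspd1 has the same heat shock elements in the window of its inner start, but not in that of its outer start. It had 264, 250, 229 and 325 TPM in the CTA BLA libraries, against 297, 271, 192 and 214 TPM in the CTA GC libraries. Hspd1 had 232, 222, 250 and 403 TPM in taste control BLA libraries, against 271, 259, 217 and 258 TPM in taste control GC libraries, and its log2 difference of 0.12 (SE 0.14, adjusted p = 0.590) was not called. The difference between the 2 genes was not itself tested. The annotated gene bodies overlap at their starts (Hspd1 chr1:55077835-55088243, Hspe1 chr1:55088132-55091307), and whether strand was used in counting is not given in the sources used here.

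Within CTA libraries alone, Cryab and Dnajb4 were called (2 of 35 genes, against 6.59% of 15077 genes), and within taste controls alone Cryab, Hspe1 and Dnajb4 (3 of 36, against 7.97% of 15085 genes). The CTA and the taste control fits share no library. Hspe1, called in the taste controls and not after CTA, had log2 differences of 0.73 after CTA and 0.69 in the taste controls, and it was not called in the test of region by training. The call of Dnajb4 within CTA was lost in 7 of 8 fits that left out 1 library, and within taste controls the calls of Dnajb4 and of Hspe1 were each lost in 6 of 8. Leaving out 1 library also added calls. Within CTA these were Hspe1 without CTA BLA 4 (log2 0.96) and Hsf1 without CTA BLA 3 (log2 1.25, against 0.88 with all libraries). Within taste controls they were Sdf2l1 without taste control BLA 1 (log2 -2.48), and Atf6 (log2 -1.28) and Eif2ak3 (log2 -1.79) without taste control BLA 3. Over both trainings Dnajb5 was added without CTA BLA 2 (log2 -0.74) or without taste control BLA 3 (log2 -0.68). Cryab kept its call in all 8 such fits of either training.

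**Figure D4:**
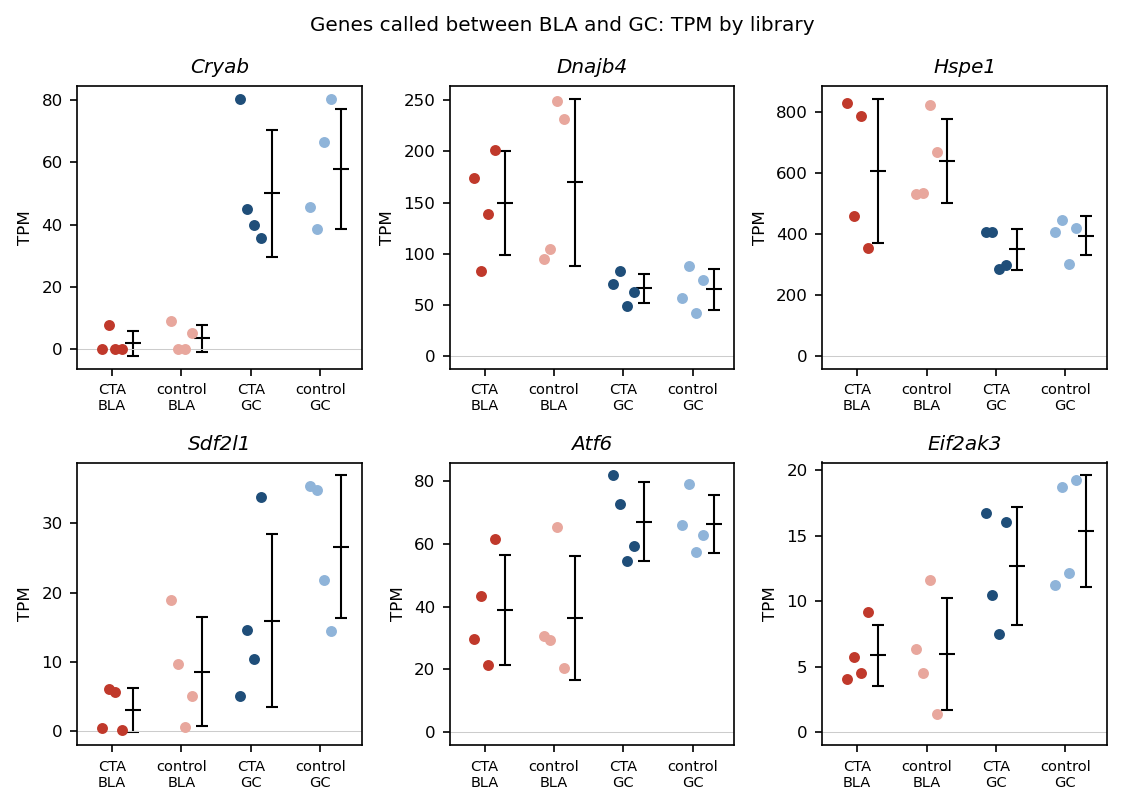
TPM (y axis) of the 6 genes called between regions, in the 4 groups on the x axis, 1 point per library, with the mean and SD (n = 4) as bars beside the points. BLA points of Cryab lie at 0 to 8.97 TPM and GC points at 35.7 to 80.4 TPM, while the other genes overlap between regions in at least 1 library.

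**Figure D5:**
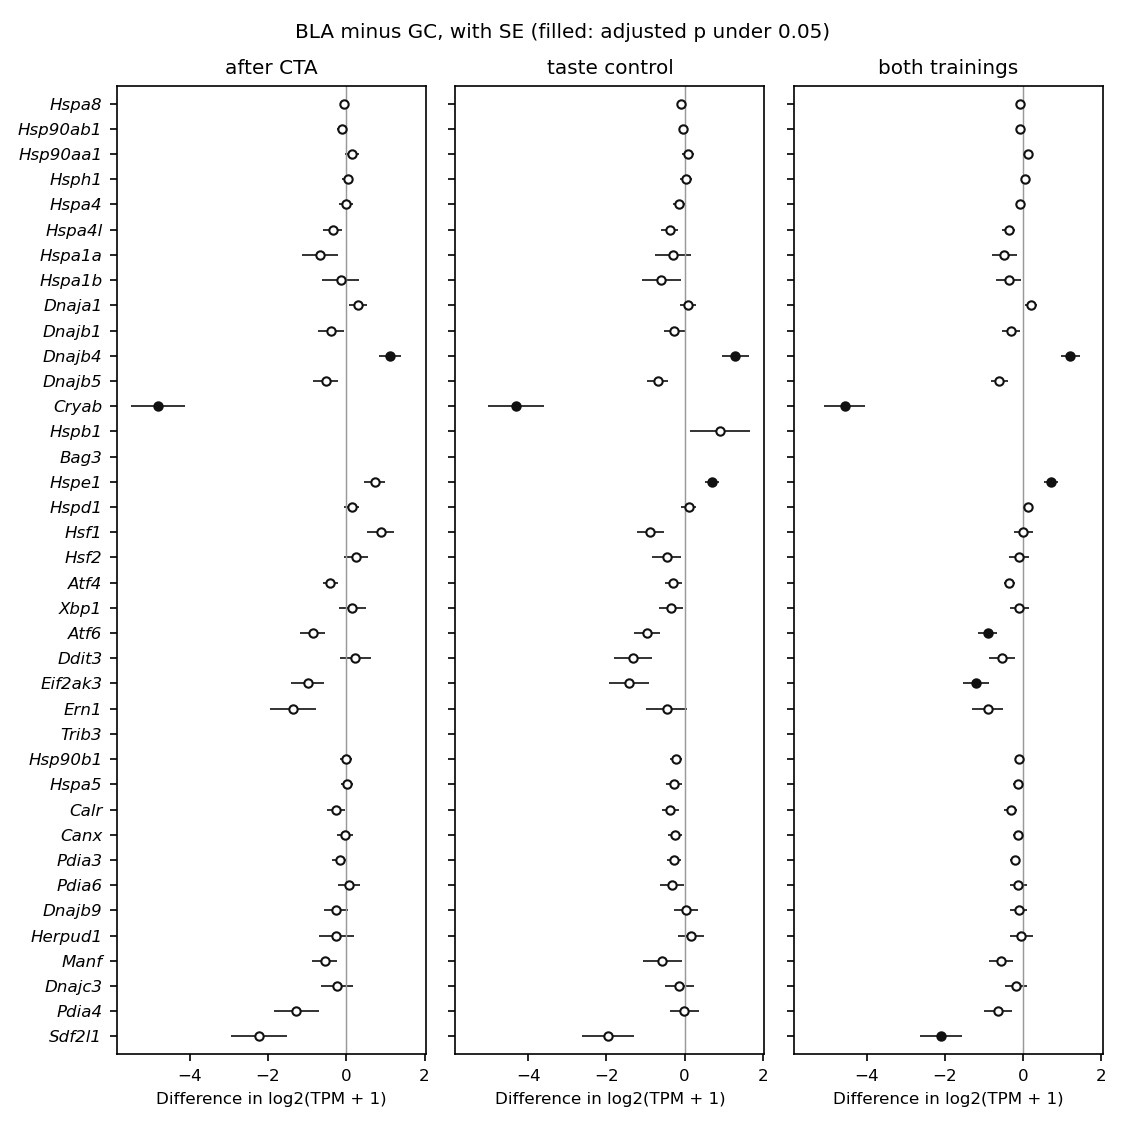
Difference in log2(TPM + 1), BLA minus GC, within CTA libraries, within taste controls and over both trainings, with SE from limma. Filled circles mark adjusted p under 0.05 and open circles the rest, and Cryab lies farthest left in all 3 panels, at -4.81, -4.31 and -4.56.

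Related genes outside the 38 gave a wider view. Of 36 other cytosolic and mitochondrial chaperones, 34 were tested between regions, with 2 called higher and 8 lower in the BLA (29.4%, median log2 -0.24, beside 19.3% and -0.23 for all genes). The muscle-type small heat shock gene Hspb3 averaged 0.0700 TPM in the BLA and 14.9 TPM in the GC (log2 -3.56, limma adjusted p = 1.45e-06), and Fkbp4, an HSP90 co-chaperone of steroid receptors, averaged 59.4 TPM in the BLA and 124 TPM in the GC (log2 -1.09, adjusted p = 0.000193). The 8 subunits of the TRiC chaperonin, which folds actin and tubulin, had a median log2 difference of 0.19 with 1 called, Cct8, at 171 TPM in the BLA and 121 TPM in the GC (adjusted p = 0.0308). Of 36 other UPR and ERAD genes 2 were called higher and 2 lower (11.1%), led by the disulfide isomerase Pdia5 at 0.121 TPM in the BLA and 10.2 TPM in the GC (log2 -3.31, adjusted p = 4.86e-08) and the ER-bound factor Creb3l1 at 9.97 TPM in the BLA and 3.35 TPM in the GC (log2 1.40, adjusted p = 0.00788). Of 24 genes of the integrated stress response, 20 were tested and 2 called (10%), Phgdh, of serine synthesis, lower (log2 -0.94) and Vldlr, a lipoprotein receptor, higher (log2 0.63) in the BLA.

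None of these lists held a gene called between CTA and taste control in either region. Fkbp5, an HSP90 co-chaperone induced by glucocorticoids, was among the 2 leading genes of its list in both regions, averaging 17.9 TPM after CTA and 5.70 TPM in controls in the BLA (log2 1.35, limma adjusted p = 0.999) and 21.3 TPM after CTA and 9.24 TPM in controls in the GC (log2 1.07, adjusted p above 0.999). Of 20 immediate early genes that are also known to rise when tissue is dissociated, 18 were tested in the BLA. Above 0 lay 12 of them (66.7%, against 52.1% of all genes), with a median log2 difference of 0.46. Fos led them, at 31.7 TPM after CTA and 12 TPM in controls, and 0 were called. Their summed level was 749 to 1051 TPM in the CTA BLA libraries and 663 to 982 TPM in the taste control BLA libraries, and its part in the Hsf1 and Ddit3 values was not tested.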

How the data were processed

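Reads were aligned by the authors with TopHat (version not given in the sources used here) against mm10, and uniquely placed reads were turned into expression values. The 2 deposited tables hold TPM per library, with the authors' group means, fold-changes and unadjusted p-values, which were not used here. The TPM of each library summed to 1000000. Because read counts are not part of the tables, depth per library is unknown, and the error of a value could be judged from replicate libraries alone.

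The scale was log2(TPM + 1). Genes averaging 1 TPM or more in the libraries fitted were tested in R 4.3.3 with limma 3.58.1 (variance trend, Benjamini-Hochberg adjustment over all genes tested, called at an adjusted p under 0.05), and 35 or 36 of the 38 genes entered a fit. The 2 training comparisons used the 8 libraries of a region, and the region comparison used the 4 group means of all 16 libraries. Fold changes on this scale understate the change of low genes. Single genes were also tested by two-sided exact permutation of mean log2 values (70 arrangements, or 4900 within training). The fits were also run on simulated data with normal noise, with changes planted only in genes at about 30 TPM or more. The share of these changes recovered is not reported here. That run therefore does not show what size of change 4 libraries against 4 could detect.

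Fold changes are given for the genes called, or for the 4 with the smallest p where fewer than 4 were called. Outside this rule they are given for Hspd1 beside Hspe1 and for genes called in an alternative only. They are also given for genes at an unadjusted p under 0.05 between regions and for leading genes of other lists. The 38 genes, the lists and this rule were chosen with earlier results of these data known. All 4 libraries that the labels give per group were used, although the study's text gives 3 or 4 per group for the GC. Positions come from GENCODE vM21 and promoter windows from RefSeq, both on GRCm38. Stretches of 50 bases shared with other transcripts were counted from GENCODE. Alternatives changed the pseudocount, filter, scaling, trend, weights, block and libraries.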

Additional observations from a re-analysis of the deposited data

Results flagged for a closer look

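Dixon's 95% critical value flags about 1 in 20 groups of normally distributed values, and TPM values need not be normal. A group with 3 libraries at 0 TPM and a single value above 0 is always flagged, which holds for Cryab, Hspb1 and Trib3 below. Among 148 groups of 4 libraries with any spread, 10 held a library set apart from the other 3 by more than this critical value. In the BLA these were Pdia6 in CTA BLA 1 (149 TPM, against 62.7 to 75.9 TPM in the other 3), Cryab in CTA BLA 2 (7.99 TPM, against 0 TPM), Bag3 in taste control BLA 2 (0.560 TPM, against 0.0200 to 0.0800 TPM), Hspa1a in taste control BLA 3 (15.2 TPM, against 4.88 to 6.29 TPM), and in taste control BLA 4 both Hspb1 (11.2 TPM, against 0 TPM) and Hspd1 (403 TPM, against 222 to 250 TPM). In the GC they were Hspa5 in CTA GC 4 (223 TPM, against 262 to 269 TPM), Hsf2 in CTA GC 2 (51.6 TPM, against 31.1 to 33.7 TPM), and in taste control GC 3 both Hsp90aa1 (855 TPM, against 1211 to 1243 TPM) and Trib3 (0.990 TPM, against 0 TPM). The causes were not tested.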

How the results depend on the processing

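The genes called, or the 4 with the smallest p in a comparison, kept their directions under every alternative run for them. For the members counted as called, CTA against taste control in the BLA gave 0 under every fit with adjusted p and 2 at an unadjusted p, while over all genes criteria modelled on those of the study (a ratio of means of 2 and over or 0.5 and under, unadjusted p under 0.01, and, as one reading of its limit, 30 TPM as the mean over all 8 libraries) called 10 genes, none of them among the 38. In the GC all genes gave 0 to 1 calls when each library was left out, 1 under these criteria and 1 without the 3 GC libraries, an alternative chosen after seeing the data. Between regions 3 of the 38 were called with a filter at 30 TPM, which tests fewer genes, and 10 at an unadjusted p, against 6 as reported. All genes then gave 1379 calls with that filter and 1841 without the 3 GC libraries, against 2933. Within CTA 1 gene was called, in place of 2, with no filter, a filter at 30 TPM, no trend, the replicate block or without the 3 GC libraries, and 1 to 2 when each library was left out. All genes within CTA gave 498 calls with a filter at 30 TPM, 642 with the replicate block, 535 to 1113 when each library was left out and 273 without the 3 GC libraries, against 994. Within taste controls 1 gene was called, in place of 3, with no filter, no trend, the replicate block or without the 3 GC libraries, and 1 to 4 when each library was left out. All genes there gave 666 calls with a filter at 30 TPM, 750 with the replicate block, 677 to 1126 when each library was left out and 786 without the 3 GC libraries (1 taste control library in this fit), against 1203. The cause was not tested. Same-numbered libraries correlated between -0.105 and 0.132 in their deviations from group means, some of them best with their own number and others not. Correlations this low cannot tell whether same-numbered libraries share more than a number. The replicate block left the 6 calls over both trainings at 6. Unknown depth limits what the low genes (Hspa1a, Hspa1b, Ern1, Bag3, Hspb1, Trib3) can show.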
